A study of Mus musculus with 24 samples.

Results

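Microglia, the resident macrophages of the brain, were isolated from mice given lipopolysaccharide (LPS) or phosphate-buffered saline (PBS), and their mRNA was sequenced. The LPS and PBS libraries of isolated microglia made up 6 of the 24 samples of the series, 3 per treatment, and were chosen by their labels. Both groups were adult wildtype C57BL/6 mice that received an intraperitoneal injection every day for 4 days, of either LPS at 1 mg/kg or PBS. After perfusion with heparinised PBS, 2 brains were pooled per tube, dissociated enzymatically with heating, cleared of debris and myelin, and passed over beads against CD11b, a surface integrin of microglia that other myeloid cells and NK cells also carry. The deposited tables listed 47069 gene identifiers per library, of which 20970 had a count in any library and 10267 passed the filter on low counts and were tested.

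LPS is the glycolipid of the outer membrane of Gram-negative bacteria. It binds Cd14 and the Tlr4 and Ly96 receptor complex, which signals through Myd88 to NF-kB and through Ticam1 to interferon regulatory factors. Microglia in the healthy brain carry a set of receptors and surface proteins called homeostatic, which they are known to lower when they become reactive, and repeated LPS is known to blunt part of the cytokine response, a state called tolerance.

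Library totals were 1250170 to 2133407 counts. Levels are given below as normalised CPM (counts scaled to a TMM-adjusted library total of 1000000), always listed for replicates 1, 2 and 3. Each log2 change is LPS minus PBS. The label was checked against defining markers: Csf1r, the receptor that microglia need to survive, gave 9257 to 11823 normalised CPM in the 6 libraries, whereas the 16 neuronal markers together took 0.00192% to 0.00322% of the counts. Markers of some other cells took more. The largest share in a library was 1.28% for choroid and ependymal genes, 0.266% for border macrophage markers and 0.228% for neutrophil markers. The check does not cover those cells, which are described below. Replicate 3 of each group stood apart, with Xist at 1.14 and 1.6 plain CPM against 1154 to 1405 in the other libraries, and the Y-linked Ddx3y at 160 and 123 plain CPM against 0. Mitochondrially encoded transcripts took 1.24% to 2.00% of counts in PBS and 1.93% to 2.63% in LPS libraries. No label calls these replicates biological, so the p-values here reflect only how far libraries of a group lay apart, and that scatter can be technical. In such pools of cells, fewer cells of a type and less RNA per cell cannot be told apart.

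After LPS, 1634 genes were higher (15.9% of those tested) and 1072 were lower (10.4%), so 26.4% were called in either direction at an adjusted p below 0.05 (edgeR's quasi-likelihood test with Benjamini-Hochberg adjustment, which gives every adjusted p below). A change of at least 4-fold was found for 229 of the higher and 56 of the lower genes. The 3 LPS values lay wholly above or below the 3 PBS values for 4173 genes, 40.6% of those tested. The groups did not overlap for 97.6% of the higher and 94.4% of the lower genes. A lack of overlap therefore adds little to a call. The median change over all tested genes was -0.02. With libraries scaled by their totals alone that median was -0.12, and 1284 genes were higher against 1630 lower, so the share of calls that were higher dropped from 60.4% to 44.1%. Among replicates 1 and 2 alone, 1995 genes were higher and 1557 lower. The pair of replicate 3 libraries allows no test. The lower count was 604 by DESeq2, and 705, 586 and 669 without PBS replicate 2, LPS replicate 1 and LPS replicate 2.

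**Figure D1:**
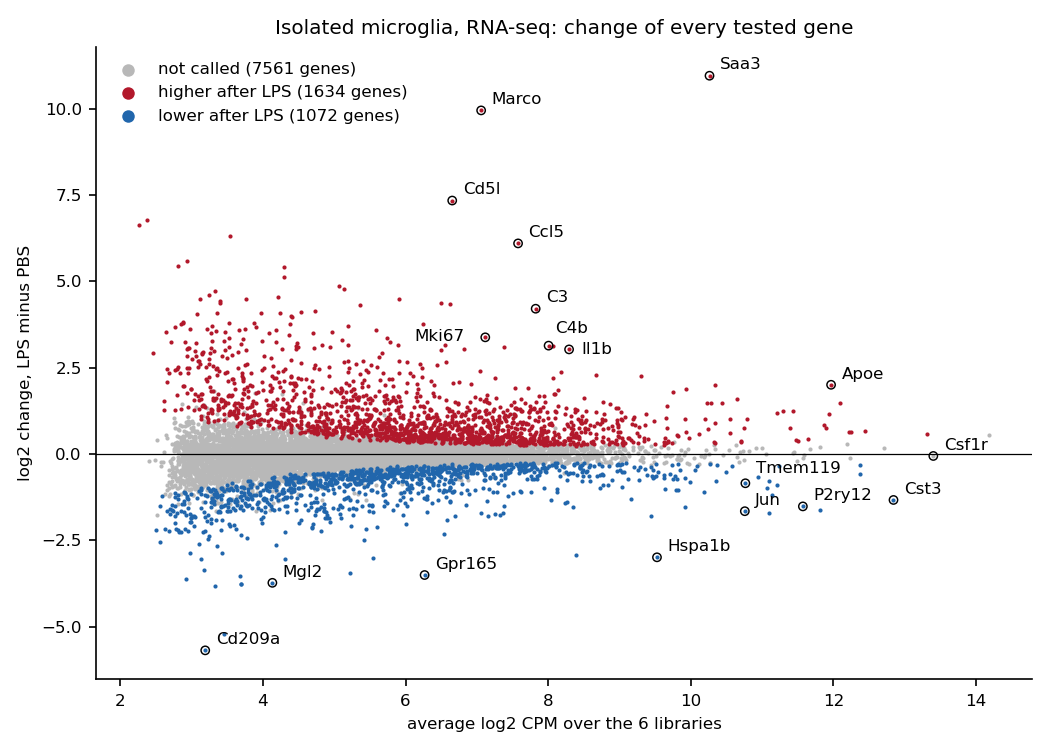
Log2 change after LPS (vertical axis) against average log2 CPM (horizontal axis) for the 10267 genes tested, 1 point per gene, with genes called higher and lower in colour. The 1634 higher genes reach farther from 0 than the 1072 lower ones, and Saa3 lies at the top.

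Interferon and NF-kB responses act through short DNA elements at gene starts, so the promoters of called genes were searched for the core of the interferon response element, GAAANNGAAA or TTTCNNTTTC on the other strand, and for the NF-kB consensus on both strands. The windows ran from 250 bases before to 50 bases after each start, in RefSeq promoters of GRCm38.p6, and the motifs could overlap each other. Of the 10267 tested genes, 8158 had a promoter in that table. The following 60-base stretches, with the match in capitals, come from 5 genes that were higher after LPS and hold the interferon core.
Saa3, chr7:46715767-46715826, minus strand: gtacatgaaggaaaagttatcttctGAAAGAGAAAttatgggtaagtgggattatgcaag
Ifitm2, chr7:140955973-140956032, minus strand: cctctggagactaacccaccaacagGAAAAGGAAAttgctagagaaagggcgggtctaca
Gbp2, chr3:142620579-142620638, plus strand: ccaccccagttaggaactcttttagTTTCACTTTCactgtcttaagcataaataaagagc
Stat2, chr10:128270251-128270310, plus strand: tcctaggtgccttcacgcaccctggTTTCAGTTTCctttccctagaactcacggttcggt
Ifit3, chr19:34583382-34583441, plus strand: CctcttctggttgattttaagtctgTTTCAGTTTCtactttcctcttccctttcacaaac
The lone capital that opens the Ifit3 stretch is the end of a second match. The matches lie 125, 46, 59, 222 and 122 bases before the respective start. Upstream of a start the interferon core was found for 10 of 24 interferon-stimulated genes called higher. It was found for 2 of 8 acute-phase and antimicrobial genes called higher, Saa3 among them.

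The interferon core occurred in 3.44% of all 32851 promoters of the table, counted per promoter. Shares of genes count a match in any promoter of a gene, so they are not comparable with that value. Of all 8158 tested genes with a promoter, 4.02% held the interferon core. Among tested genes with a promoter it occurred in 94 of 1304 called higher (7.21%), in 29 of 809 called lower (3.58%) and in 3.39% of those not called. Of the called-higher genes that changed at least 4-fold, 21 of 186 held it (11.3%), and of the interferon-stimulated list described below 17 of 25 did (68%). The NF-kB consensus occurred in 8.46% of all promoters, counted per promoter. Counted per gene, it occurred in 12.5% of all tested genes with a promoter. The share was 14.6% of the higher, 14.1% of the lower and 11.8% of the uncalled genes. A match is a description of the letters and does not show that a factor bound there.

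The genes of MHC class I molecules, which present peptides to CD8 T cells, hold closely similar upstream stretches. The NF-kB match, in capitals, lies 170 bases before the start of H2-D1, 172 before that of H2-Q6 and 173 before that of H2-Q4, and 110 or 124 before the 2 annotated starts of H2-K1. All 4 genes were higher after LPS.
H2-D1, chr17:35262899-35262958, plus strand: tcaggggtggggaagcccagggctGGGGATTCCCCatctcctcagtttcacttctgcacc
H2-K1, chr17:34000423-34000482, minus strand: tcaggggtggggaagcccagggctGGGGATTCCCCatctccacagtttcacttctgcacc
H2-Q6, chr17:35424653-35424712, plus strand: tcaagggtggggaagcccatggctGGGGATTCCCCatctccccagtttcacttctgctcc
H2-Q4, chr17:35379419-35379478, plus strand: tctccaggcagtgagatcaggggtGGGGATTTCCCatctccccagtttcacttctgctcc
Of the 13 class I and peptide-loading genes called higher, 8 held the NF-kB consensus upstream of a start, and 8 of the 15 list members with a promoter held it in the whole window (53.3%). The interferon core was held by 4 of those 15 (26.7%).

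The change with the largest log2 value was that of Saa3, serum amyloid A3, an acute-phase protein that macrophages make locally. Saa3 (ENSMUSG00000040026, chr7:46711998-46719615, mm10) gave 0.989, 0 and 2.18 normalised CPM in the PBS libraries and 2691, 2745 and 1933 in the LPS libraries. Every LPS library thus lay far above the highest PBS value, and the log2 change was 10.95 (SE 0.30, adjusted p = 2.57e-09). Serum amyloid genes are related in sequence, so how reads were divided among them is uncertain, although Saa1 had no count in any library. Cp, ceruloplasmin, a copper-carrying ferroxidase, went from 48.9, 38.8 and 74.0 to 510, 558 and 370 normalised CPM, a log2 change of 3.13 (SE 0.20, adjusted p = 1.69e-06). Cybb, the catalytic subunit of the phagocyte NADPH oxidase, rose by 2.39 (adjusted p = 9.6e-06), and Lcn2, an iron-withholding lipocalin, by 2.41 (adjusted p = 0.00248). In the 3 PBS libraries Lcn2 was uneven, at 19.3, 11.6 and 89.8 normalised CPM.

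Of 21 acute-phase and antimicrobial genes, 14 were tested, 8 were higher and none was lower, with a median change of 1.57. The 6 others were mainly granule genes of neutrophils, among them S100a9 at 106, 48.9 and 443 normalised CPM in PBS and 395, 364 and 266 in LPS libraries (adjusted p = 0.318). PBS replicate 3 was the highest PBS library for S100a9, and the groups overlapped. Without PBS replicate 3, or with replicates 1 and 2 alone, 14 of the list were higher, where the filter was run again and the number tested can differ. Without LPS replicate 1, without LPS replicate 2 or by DESeq2, 5 were.

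Interferon-stimulated genes rose as a group: 24 of 35 tested were higher and none was lower, with a median of 0.89. Ifitm2, a membrane protein that restricts virus entry, went from 9.89, 9.32 and 20.1 to 73.0, 85.3 and 56.1 normalised CPM (log2 change 2.43, SE 0.26, adjusted p = 3.75e-05). Its close relative Ifitm3 rose by 1.69 and Ifitm1 by 5.11, although reads may be divided unevenly within this family. Ifi204, a DNA sensor of the p200 family, rose by 2.60 (adjusted p = 6.93e-06). Ifit3, which binds foreign RNA together with its relatives, went from 5.44, 6.99 and 12 to 32.7, 31.2 and 40.2 normalised CPM, and Ifit2 rose by 1.65.

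Transcription factors of the interferon pathway were measured as well. Stat2, which carries the type I interferon signal, gave 53.4, 52.0 and 45.7 normalised CPM in PBS and 87.5, 89.7 and 105 in LPS libraries, with no overlap (log2 change 0.89, adjusted p = 0.000267). Irf7, the interferon regulatory factor that amplifies type I interferon, rose by 1.87 (adjusted p = 0.000119). In contrast Irf1 changed by -0.01, Irf9 by 0.14 and Igtp, an interferon-gamma-induced GTPase, by -0.32, and none of these passed the test. Gbp2, another GTPase of that kind, rose by 1.78 (adjusted p = 0.000196).

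MHC class I genes were higher in 13 of 18 cases and lower in none, with a median of 1.09. H2-D1 gave 372, 431 and 440 normalised CPM in PBS and 1682, 1621 and 1302 in LPS libraries (log2 change 1.89, SE 0.12, adjusted p = 1.66e-06), and H2-K1 rose by 1.80 (adjusted p = 2.9e-06). H2-Q6 rose by 2.60 and H2-Q4 by 1.78. The shared light chain B2m rose by 1.19, the peptide transporter subunit Tap1 by 1.21 and Nlrc5, the transactivator of class I genes, by 1.61. Tap2, the partner subunit, changed by -0.09 and did not pass the test. Class I genes are near copies, so the division of reads between them is uncertain.

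MHC class II genes, which present peptides to CD4 T cells, went the other way. H2-Ab1 gave 130, 142 and 116 normalised CPM in PBS and 61.1, 71.2 and 62.0 in LPS libraries (log2 change -0.98, SE 0.12, adjusted p = 9.11e-05). H2-Aa fell by 1.06, H2-Eb1 by 1.09 and the invariant chain Cd74 by 0.56, each without overlap of the groups. Ciita, the transactivator of class II genes, changed by 0.31 and did not pass the test. In the same list of class II and costimulatory genes 4 were higher and 5 lower of 15 tested, with a median of -0.02. The shares were 26.7% and 33.3%, against 15.9% and 10.4% of all tested genes. Among the higher members Cd72, a lectin-like receptor first described on B cells, went from 11.9, 6.21 and 5.44 to 133, 290 and 73.7 normalised CPM (log2 change 4.38, adjusted p = 7.98e-05). Cd274, the checkpoint ligand PD-L1, rose by 1.84 (adjusted p = 0.000139).

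**Figure D2:**
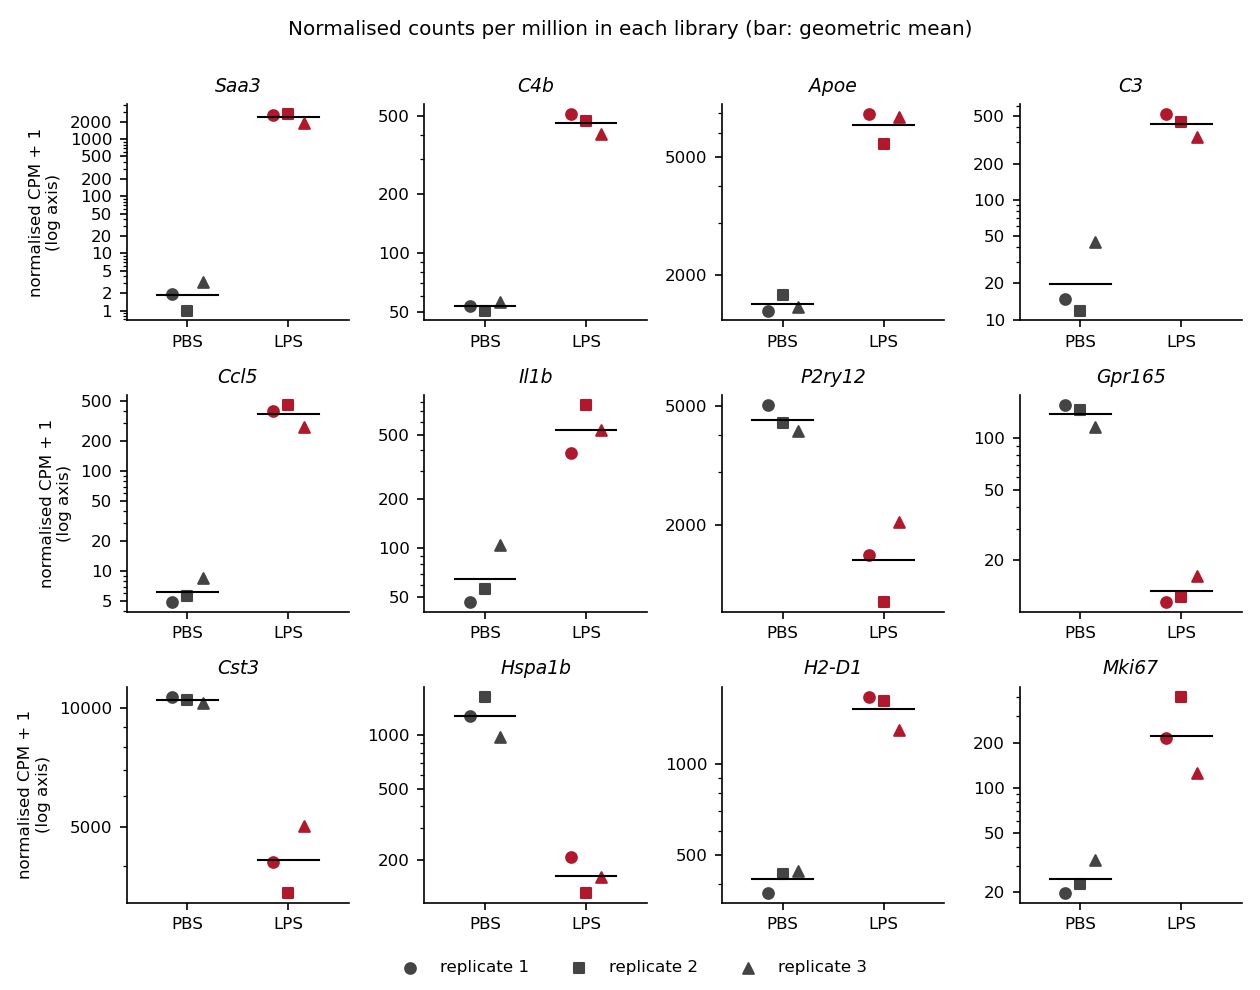
Normalised CPM plus 1 on a log axis for 12 genes, with 1 point per library and a bar at the geometric mean of the 3 PBS and the 3 LPS libraries. Saa3 lies near 0 in the PBS libraries and between 1933 and 2745 in the LPS libraries, and P2ry12, Gpr165, Cst3 and Hspa1b lie lower after LPS in every library.

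Complement, the serum cascade that tags particles for uptake, was higher in 10 of 14 tested genes and lower in none, with a median of 0.63. C3, its central component, went from 13.8, 10.9 and 43.0 to 516, 445 and 331 normalised CPM (log2 change 4.21, SE 0.32, adjusted p = 3.4e-06). C4b (ENSMUSG00000073418, chr17:34728139-34743902), which works upstream of C3, went from 52.4, 49.7 and 54.9 to 510, 472 and 404 (log2 change 3.14, SE 0.11, adjusted p = 2.57e-08). The PBS values of C4b lay within a narrow range, whereas PBS replicate 3 was the highest for C3. Cfp, properdin, which stabilises the C3 convertase, rose by 2.80, and Itgam, the CD11b chain of the receptor used for isolation, by 0.96 (adjusted p = 1.74e-05). C1qa, the recognition unit that microglia express strongly at rest, went from 2748, 2744 and 2622 to 3907, 3573 and 3531 normalised CPM, a log2 change of 0.44.

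Fc receptors bind the constant part of antibodies. Fcgr4, an activating receptor, rose by 3.16 from 17.3, 15.5 and 22.8 to 170, 222 and 107 normalised CPM (adjusted p = 5.73e-06). The inhibitory receptor Fcgr2b rose by 1.07 and the shared signalling chain Fcer1g by 0.90, whereas Fcgr1 (-0.10) and Fcgr3 (0.11) were not called. Of 7 genes tested 4 were higher and 1, Fcrl1, was lower by a log2 change of -0.88.

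The receptor for LPS itself did not pass the test. Tlr4 gave 172, 184 and 155 normalised CPM in PBS and 160, 146 and 163 in LPS libraries, overlapping values with a log2 change of -0.13 (SE 0.10, adjusted p = 0.384). Its co-receptor Cd14 rose by 0.61 (adjusted p = 0.000279). Tlr2, which senses bacterial lipoproteins, rose by 1.63 from 164, 176 and 192 to 545, 594 and 503, while Tlr3, the sensor of double-stranded RNA, fell by 0.54 (adjusted p = 0.00498). Myd88, Tirap, Irak1, Irak2 and Traf6, which carry the signal inside the cell, had changes of -0.09 to 0.07 and none was called.

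Of the 28 tested genes of LPS sensing and tolerance 12 were higher and 2 lower, with a median of 0.29. Aoah, acyloxyacyl hydrolase, which removes fatty acids from LPS and so inactivates it, went from 11.4, 6.21 and 8.70 to 190, 215 and 153 normalised CPM (log2 change 4.36, SE 0.20, adjusted p = 1.86e-07). Irak3, the kinase-dead inhibitor of the Irak cascade, rose by 2.25 from 4.45, 3.88 and 12 to 37.5, 35.1 and 26.8. The inhibitory receptor Pilra rose by 2.68 and Cd300lf by 2.67. For the activating Pilrb1 a single count was found in the PBS libraries, so its LPS over PBS ratio was 57.2 with a 95% counting interval of 9.86 to 2300.

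In the NF-kB system 8 of 16 genes were higher and 1 lower, with a median of 0.42. Ikbke, a kinase that acts in both the NF-kB and interferon pathways, went from 0.989, 1.55 and 4.35 to 68.8, 86.3 and 40.2 normalised CPM (log2 change 4.79, adjusted p = 8.93e-06). Feedback inhibitors rose: Tnip1 by 1.54 (adjusted p = 9.62e-06), Tnfaip3, also called A20, by 0.98 (adjusted p = 8.11e-05) and Nfkbia by 0.44 (adjusted p = 0.00574). Nfkb2 and Relb, the subunits of the non-canonical dimer, rose by 1.20 and 0.92, whereas Nfkb1 (0.11) and Rel (-0.02) were not called. Rela had a change of -0.33 (adjusted p = 0.0374) that lost its call in 6 of 14 alternative settings.

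Among cytokines and their receptors more members rose than fell. Il1b, the pro-inflammatory interleukin-1 beta, went from 46.0, 55.1 and 103 to 384, 757 and 530 normalised CPM (log2 change 3.03, SE 0.29, adjusted p = 1.51e-05), and its receptor antagonist Il1rn rose by 3.11 from 1.98, 0 and 3.81 to 13.2, 25.8 and 15.9. Il6 was lower after LPS: 10.4, 7.77 and 10.3 became 2.08, 0.975 and 3.35, a log2 change of -2.27 (adjusted p = 0.00244). Tnf gave 18.3, 30.3 and 29.9 in PBS and 24.3, 44.4 and 38.5 in LPS libraries and Il1a changed by 0.29, and neither was called. Receptor chains also rose, among them the common gamma chain Il2rg by 3.11 and Csf2ra, part of the GM-CSF receptor, by 1.13. In all, 14 of 27 cytokine genes were higher and 3 lower, with a median of 0.38. The shares were 51.9% and 11.1%, against 15.9% and 10.4% of all tested genes, so the lower share was near that of all genes. Only 1 was lower without PBS replicate 2, LPS replicate 1 or LPS replicate 2.

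Chemokines draw leukocytes into tissue, and 11 of 17 tested chemokine and receptor genes were higher and 2 lower, with a median of 0.98. Ccl5 went from 3.95, 4.66 and 7.62 to 398, 453 and 275 normalised CPM (log2 change 6.10, SE 0.26, adjusted p = 1.11e-07). The interferon-induced Cxcl10 rose by 2.12 and the membrane-bound Cxcl16 by 2.01 (adjusted p = 1.85e-06). Ccl2, the chief attractant of monocytes, gave 32.1, 45.0 and 50.6 normalised CPM in PBS and 38.2, 65.8 and 41.9 in LPS libraries (adjusted p = 0.494). The eosinophil attractant Ccl24 fell by 3.63 from 8.90, 11.6 and 14.1 to 1.39, 0.488 and 0.838. For the B-cell attractant Cxcl13 only 1 count was found in PBS, and the ratio was 103 with a 95% counting interval of 18.1 to 4117.

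Of 14 tested inflammasome and cell death genes 6 were higher and none lower (median 0.42). Casp4, the caspase that binds LPS in the cytosol, rose by 1.12 (adjusted p = 0.000842) and Naip2, which detects bacterial secretion rods, by 0.90. Nlrp3, the sensor of the best known inflammasome, had a change of -0.39 and was not called. By DESeq2 3 of the list were higher, and with replicates 1 and 2 alone 11.

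**Figure D3:**
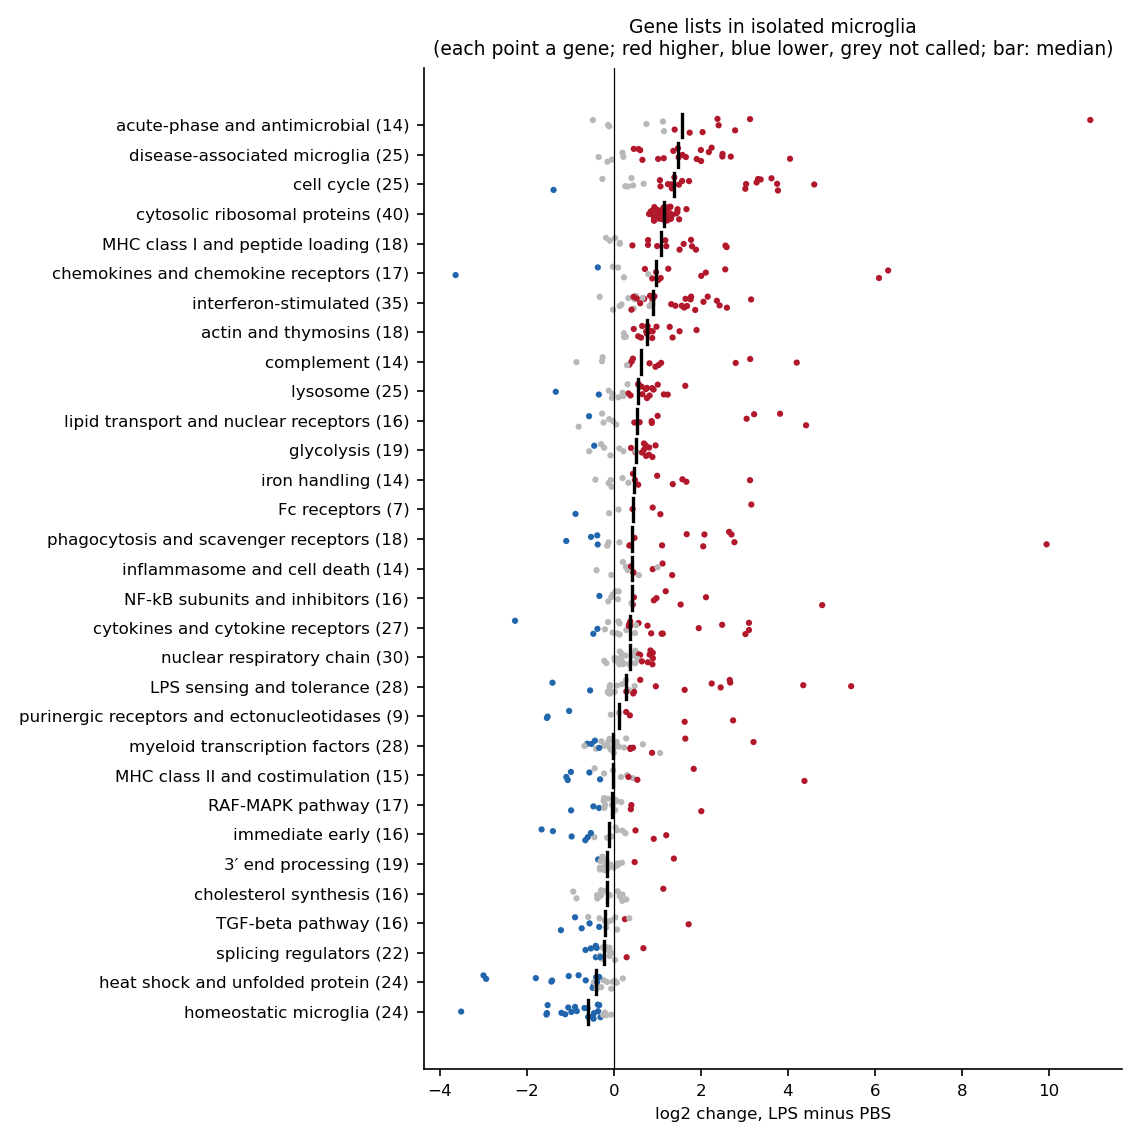
Log2 change after LPS (horizontal axis) of each tested gene of 31 pathway lists, 1 point per gene and a bar at the list's median. Ribosomal proteins lie wholly above 0, between 0.81 and 1.67, and homeostatic microglial genes lie wholly below 0.

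Homeostatic genes of microglia were lower in 20 of 24 cases and higher in none, with a median of -0.60. P2ry12, the ADP receptor that guides microglial processes, gave 5034, 4376 and 4121 normalised CPM in PBS and 1578, 1103 and 2048 in LPS libraries (log2 change -1.52, SE 0.19, adjusted p = 0.000102). Its neighbour and relative P2ry13 fell by 1.54, the orphan receptor Gpr34 by 1.11 and the lectin Siglech by 1.04. Gpr165 (ENSMUSG00000031210, chrX:96713468-96719388), a receptor with no established ligand, went from 153, 144 and 115 to 10.4, 11.2 and 15.1 (log2 change -3.51, SE 0.18, adjusted p = 5.93e-07). No LPS library reached 1 in 5 of the lowest PBS value of Gpr165, which made it the list member with the largest change.

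Other genes used to identify microglia changed by differing amounts. Tmem119 fell by 0.85, from 2408, 2333 and 1970 to 1258, 1151 and 1318 normalised CPM (adjusted p = 0.000136), and Cx3cr1, the fractalkine receptor, fell by 0.59. Csf1r changed by -0.06 (SE 0.11, adjusted p = 0.755). Slc2a5, the fructose transporter, fell by 1.55 and Selplg, a selectin ligand, by 1.20, both without overlap.

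Genes of the profile described for microglia near plaques and in degeneration were higher in 20 of 25 tested cases and lower in none, with a median of 1.48. Apoe (ENSMUSG00000002985, chr7:19696244-19701310), the main lipid carrier of the brain, gave 1522, 1715 and 1564 normalised CPM in PBS and 6943, 5497 and 6801 in LPS libraries, a log2 change of 2.00 (SE 0.12, adjusted p = 1.46e-06). Itgax, the CD11c integrin, rose by 2.50, Lgals3bp by 2.25, the receptor tyrosine kinase Axl by 1.91 and the beta-glucan receptor Clec7a by 1.66. Trem2, the receptor that the profile depends on, gave 877, 855 and 871 in PBS and 816, 776 and 936 in LPS libraries (log2 change -0.04, adjusted p = 0.778). Its signalling partner Tyrobp rose by 0.61 (adjusted p = 0.000773). Acp5, an acid phosphatase of osteoclasts and activated macrophages, is in no list and went from 2.47, 1.55 and 2.18 to 83.4, 67.8 and 38.5 (log2 change 4.86, adjusted p = 3.73e-06).

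Scavenger receptors, which take up particles and modified lipids, had some of the steepest changes. Marco, a receptor for bacteria and silica, gave 1 count in the 3 PBS libraries and 415, 271 and 110 normalised CPM after LPS, a ratio of 1311 with a 95% counting interval of 235 to 51831. Cd5l, a secreted scavenger protein of macrophages, went from 1.98, 1.55 and 0 to 302, 181 and 117 (log2 change 7.34, adjusted p = 2.87e-06). Msr1 rose by 2.65 and Siglec1, which binds sialylated ligands, by 2.06. Mfge8, a bridge between dying cells and phagocytes, fell by 1.09 (adjusted p = 0.00365). Of the 18 genes 11 were higher and 4 lower (median 0.43), and 1 was lower without LPS replicate 1.

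Lysosomal genes were higher in 16 of 25 and lower in 2, with a median of 0.57. Ctsb, cathepsin B, went from 2436, 2439 and 2457 to 5484, 5558 and 5238 normalised CPM (log2 change 1.15, SE 0.09, adjusted p = 5.73e-06). Grn, progranulin, rose by 1.24, Ctsh by 1.15 and Ctsz by 1.01, while Ctsd (0.57) and Psap (0.64), already among the most abundant transcripts, rose less. Cst3, cystatin C, the secreted inhibitor of these cysteine proteases, went the other way: 10722, 10515 and 10308 became 4086, 3407 and 5038, a log2 change of -1.33 (SE 0.14, adjusted p = 2.96e-05). Tfeb, a master regulator of lysosomal genes, changed by -0.04 and was not called.

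Of 16 genes of lipid transport and nuclear receptors 9 were higher and 1 lower (median 0.53). Abca1, which loads cholesterol onto lipoproteins, went from 985, 959 and 1030 to 2042, 1805 and 2145 normalised CPM (log2 change 1.01, adjusted p = 2e-05), and Abcg1 rose by 0.88. Their regulator Nr1h3, liver X receptor alpha, rose by 3.23 from a low level of 3.95, 3.11 and 2.72, whereas its paralogue Nr1h2 changed by -0.02. Apoc2, which activates lipoprotein lipase, rose by 4.42, and Mylip, which degrades the LDL receptor, fell by 0.57. Of 16 cholesterol synthesis genes 1 was higher (Mvd, by 1.14, a call lost by DESeq2 and without LPS replicate 1) and none lower, with a median of -0.16.

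Of 9 tested purinergic genes 4 were higher and 3 lower. P2rx4, an ATP-gated channel, went from 75.6, 62.1 and 85.4 to 245, 245 and 205 normalised CPM (log2 change 1.63, adjusted p = 3.4e-06), and the adenosine receptor Adora1 rose by 2.74. Entpd1, the ectonucleotidase CD39 that degrades ATP, fell by 1.02 along with P2ry12 and P2ry13.

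Cell division genes were higher in 18 of 25 cases and lower in 1, with a median of 1.39. Mki67, a marker of cycling cells, gave 18.8, 21.7 and 32.1 normalised CPM in PBS and 214, 405 and 124 in LPS libraries (log2 change 3.38, SE 0.39, adjusted p = 6.84e-05). Top2a, which untangles replicated DNA, rose by 3.77, and Aspm, a spindle protein, by 4.56 from 1.48, 0.777 and 1.63 to 34.0, 47.3 and 15.9. LPS replicate 2 was the highest and LPS replicate 3 the lowest for each of these 3 genes. Counts of the whole list took 0.0794%, 0.0819% and 0.0837% in PBS and 0.152%, 0.239% and 0.117% in LPS libraries. The marker sums of T and NK cells and of monocytes and dendritic cells rank the LPS libraries in the same order. That order was common among the 1634 higher genes. Of these, 50.1% were highest in LPS replicate 2 among the LPS libraries, and 60.8% were lowest in LPS replicate 3. The part of those other cells in the rise of the cell division genes was not tested. Cdkn1a, the cell cycle inhibitor p21, also rose, by 1.39. The member that fell was Ccnd1, cyclin D1, from 139, 157 and 125 to 50.02, 63.9 and 43.6 (log2 change -1.38, adjusted p = 3.52e-05).

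Cytosolic ribosomal protein genes were higher in 40 of 40 cases, with log2 changes of 0.81 (Rpl5) to 1.67 (Rpl32) and a median of 1.15, and this count stayed at 40 in all 14 alternative settings. Rplp0, part of the stalk of the large subunit, gave 261, 249.3 and 246 normalised CPM in PBS and 736, 692 and 622 in LPS libraries (log2 change 1.44, SE 0.09, adjusted p = 1.66e-06). Rpl11, of the same subunit, rose by 1.34. Pabpc1, the cytoplasmic poly(A)-binding protein that promotes translation, rose by 1.38, from 427, 455 and 476 to 1233, 1173 and 1136 (adjusted p = 1.72e-06).

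Of 30 nuclear genes of the respiratory chain 9 were higher and none lower (median 0.37), led by Cox8a at 0.90 and Cox4i1 at 0.85, and 5 were higher without LPS replicate 2. Of 19 glycolytic genes 11 were higher and 1 lower (median 0.51). Pfkfb3, which makes the activator of phosphofructokinase, went from 231, 255 and 226 to 418, 467 and 500 normalised CPM (log2 change 0.96, adjusted p = 1.91e-05), and Pkm rose by 0.89. Gapdh, often used as a reference gene, rose by 0.65 (adjusted p = 0.00572). The lower one was Hk1 (-0.45, adjusted p = 0.0429), a call lost in 7 of 14 alternative settings, among them the replicate block (adjusted p = 0.0528).

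Genes of the actin cytoskeleton were higher in 15 of 18 cases and lower in none, with a median of 0.77. The intermediate filament Vim, grouped with them, went from 86.0, 76.1 and 103 to 369, 329 and 300 normalised CPM (log2 change 1.90, adjusted p = 1.66e-06), and the small GTPase Rac2 rose by 1.51. Actb itself changed by 0.28 (adjusted p = 0.0883). Iron handling genes were higher in 8 of 14 cases and lower in none (median 0.47). Fth1, the ferritin heavy chain that stores iron, went from 812, 823 and 791 to 2458, 2921 and 1865 (log2 change 1.58, adjusted p = 1.18e-05), and the importer Slc11a2 rose by 1.36. Slc40a1, the iron exporter, and Tfrc, the transferrin receptor, changed by -0.12 and -0.42, and neither was called.

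Heat shock genes were lower. Hspa1b gave 1290, 1651 and 979 normalised CPM in PBS and 206, 129 and 159 in LPS libraries (log2 change -2.99, SE 0.20, adjusted p = 2.06e-06). Its near-identical copy Hspa1a fell by 2.93, and reads of the pair may be divided arbitrarily. Hsp90aa1, the inducible cytosolic chaperone, fell by 1.43, Hsph1 by 1.79 and Hspb1 by 2.64. In the list of heat shock and unfolded protein genes 13 of 24 were lower and none higher (median -0.40), with 8 lower without LPS replicate 1. The chaperones of the endoplasmic reticulum, such as Hspa5 (-0.29), Calr (-0.02) and Hsp90b1 (-0.15), were not called.

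Some immediate early genes, which respond within minutes to stimuli, were lower as well. Jun went from 2382, 2890 and 2610 to 728, 754 and 1018 normalised CPM (log2 change -1.66, SE 0.14, adjusted p = 6.19e-06), Jund fell by 1.40 and Ier5 by 0.97. Fos gave 990, 1326 and 1143 in PBS and 893, 1267 and 1188 in LPS libraries, with overlapping groups (log2 change -0.05, adjusted p = 0.852). Dusp1 changed by 0.20 and was not called, and Nr4a1, an orphan nuclear receptor, rose by 1.21. Of 16 genes 3 were higher (1 without PBS replicate 1) and 6 lower, with a median of -0.10. The shares were 18.75% and 37.5%, against 15.9% and 10.4% of all tested genes.

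Of 28 lineage transcription factors 6 were higher and 4 lower (median -0.01). Those are shares of 21.4% and 14.3%, against 15.9% and 10.4% of all tested genes. Spi1, or PU.1, the factor that defines the myeloid lineage, gave 220, 232 and 250 normalised CPM in PBS and 267, 299 and 260 in LPS libraries (log2 change 0.24, adjusted p = 0.0717), and Irf8 changed by 0.01. Cebpb, which drives acute-phase genes, rose by 1.65 from 23.7, 31.1 and 32.1 to 85.5, 113 and 67.0. Runx2, known mainly from bone, rose by 3.21 from 0, 1.55 and 2.72 to 9.03, 16.1 and 14.2. Maf fell by 0.61. Without LPS replicate 3, 10 were higher, and 2 were lower without any single PBS library and 1 without LPS replicate 1.

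TGF-beta signalling maintains the homeostatic state of microglia. Its type I receptor Tgfbr1 went from 3260, 3033 and 2883 to 1668, 1296 and 1996 normalised CPM (log2 change -0.89, adjusted p = 0.000717). The co-receptor Eng fell by 0.74, the signal transducer Smad3 by 0.55 and the ligand Tgfb2 by 1.21, whereas the ligand Tgfb1 changed by -0.13 and was not called. Tgfbi, a matrix protein induced by TGF-beta, rose by 1.72 (adjusted p = 0.000634). In this pathway 2 of 16 genes were higher and 5 lower, with a median of -0.19, and 8 were lower with replicates 1 and 2 alone. The main shares were 12.5% higher and 31.25% lower, against 15.9% and 10.4% of all tested genes.

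The RAF kinases relay growth signals to MAP kinases. Araf gave 80.1, 71.4 and 72.9 normalised CPM in PBS and 70.9, 63.9 and 71.2 in LPS libraries, a log2 change of -0.14 (SE 0.11, adjusted p = 0.426). Braf changed by -0.20 (SE 0.12) and was not called. Downstream, the ERK phosphatase Dusp6 fell by 0.98, from 607, 562 and 517 to 270, 273 and 314 (adjusted p = 2.06e-05), and the nuclear phosphatase Dusp2 rose by 2.01. Mapk3, or ERK1, rose by 0.41. In this list 3 of 17 were higher and 3 lower, with a median of -0.04. Each count is 17.6% of those tested, near the 15.9% higher and above the 10.4% lower among all tested genes.

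Genes of splicing and 3' end processing were covered by 2 lists. Ptbp1, a repressor of splicing that also affects poly(A) site use, gave 186, 189 and 210 normalised CPM in PBS and 151, 169 and 158 in LPS libraries (log2 change -0.29, SE 0.09, adjusted p = 0.0361). Its paralogue Ptbp2 had a change of -0.39 (adjusted p = 0.0342), which became 0.0503 with a replicate block. Each of these calls was lost in 8 of 14 alternative settings. Srsf7 fell by 0.65, Srsf6 by 0.53 and Srsf2 by 0.41, which are splicing factors of the SR family. Of 22 splicing regulators 2 were higher and 7 lower (median -0.22), 3 were lower by DESeq2 or without LPS replicate 1, and 12 with scaling by total counts. Of 19 genes of 3' end processing Pabpc1 and Cpsf4 were higher and Cpsf6 was lower, with a median of -0.14. The higher shares were 9.09% for splicing and 10.5% for 3' end processing, against 15.9% of all tested genes. The lower shares were 31.8% and 5.26%, against 10.4%. Cpsf4 had an adjusted p of 0.0412, and of 0.0528 with a replicate block, and the calls of Cpsf4 and Cpsf6 were lost in 8 and 6 of 14 alternative settings.

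Several genes outside every list were among the strongest decreases. Gprasp1 and Gprasp2, which sort receptors for degradation, fell by 2.33 and 3.05, and Gprasp1 went from 151, 159 and 146 to 34.0, 26.3 and 31.0 normalised CPM. Upk1b, a tetraspanin, fell by 3.01 from 91.0, 74.6 and 70.2 to 9.03, 7.80 and 13.4 (adjusted p = 2.16e-06). Mgl2, a lectin of alternatively activated macrophages and dendritic cells, fell by 3.73 from 31.6, 29.5 and 27.2 to 0, 1.95 and 5.03. These genes were picked among those whose groups did not overlap, so their lack of overlap follows from the choice. On the higher side Adgb, androglobin, went from 0.989, 1.55 and 0 to 37.5, 49.7 and 19.3 (log2 change 5.42, adjusted p = 3.23e-05).

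Markers of other cells that CD11b beads or residual tissue could bring along moved with treatment. The 20 T and NK cell markers together took 0.00347%, 0.00407% and 0.00405% of counts in the PBS libraries and 0.0685%, 0.0789% and 0.0455% in the LPS libraries, without overlap. The exact permutation test gave a two-sided p of 0.1, the smallest that 3 against 3 allows. Of the 10 tested 9 were higher. Granzyme genes of cytotoxic cells led them, with Gzma at 6.92, 3.88 and 3.81 against 129, 138 and 69.5 normalised CPM (log2 change 4.48) and Gzmb rising by 4.08. The NK receptor Ncr1 rose by 2.99, from 1.98, 2.33 and 1.63 to 20.1, 15.1 and 12.6. The T cell receptor component Cd3e had 1 count in all 6 libraries together. Ccl5, described above, belongs to this list too and makes up much of its sum, and the part of lymphoid cells in its change was not tested.

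Monocyte and dendritic markers summed to 0.04%, 0.0388% and 0.0558% in PBS and 0.0947%, 0.105% and 0.0772% in LPS libraries. Of 13 tested 7 were higher and 1 lower, with a median of 1.31. With no filter on low counts, where all 17 members were tested, 13 were higher. With replicates 1 and 2 alone 11 were, where the number tested can differ from 13. Treml4 rose by 3.49, the monocyte gene Plac8 by 2.63 from 3.95, 1.55 and 12 to 41.7, 45.4 and 26.8, and Ccr2, the receptor for Ccl2, by 1.02. Cd209a, a lectin of dendritic cells, went down from 78 counts to 1, a PBS over LPS ratio of 76.3 with a 95% counting interval of 13.3 to 3053. Of border macrophage markers Siglec1 and Ms4a7 (1.18) rose and Lyve1 fell by 1.57, 5 and 2 of 12 in the respective directions, and the sum was 0.203% to 0.266% in PBS and 0.254% to 0.259% in LPS libraries. The border macrophage sums of the groups thus overlapped. The sums of T and NK markers and of monocyte and dendritic markers were higher in every LPS library. Saa3, Marco, Cd5l, the MHC class I genes and the cell division genes rose as well. The part of any of these other cells in those results was not tested.

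Neutrophil markers took 0.0994%, 0.0869% and 0.228% of counts in PBS and 0.189%, 0.179% and 0.176% in LPS libraries. PBS replicate 3 was the highest of all, and 1 of 11 markers was called higher, against 10 without that library. In fits that leave out libraries the filter was run again, so the number of markers tested can differ. Endothelial and mural markers took 0.0945%, 0.0888% and 0.193% in PBS and 0.0561%, 0.0356% and 0.0890% in LPS libraries, and 5 of 15 were lower, against 10 without LPS replicate 3 and 8 with a replicate block. The pericyte gene Rgs5 fell by 1.81 and Pdgfrb by 2.24. Haemoglobin genes fell, with Hbb-bs going from 59.3, 62.1 and 71.8 to 6.25, 2.93 and 10.1 normalised CPM (log2 change -3.44), although copies of these genes share reads.

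Choroid plexus and ependymal genes were uneven among PBS libraries. Their sum was 1.28%, 1.23% and 0.312% in PBS and 0.241%, 0.309% and 0.288% in LPS libraries, and Ttr, the thyroxine carrier that choroid plexus secretes, gave 7673, 6959 and 1666 against 1534, 1921 and 1833 normalised CPM. The high values were those of PBS replicates 1 and 2, and the groups overlapped. Ttr was called lower (-1.62, adjusted p = 0.0106), a call lost without PBS replicate 1, PBS replicate 2 or LPS replicate 1 and by DESeq2. Of 6 such genes 5 were lower, and 2 when any of those 3 libraries was left out. Astrocyte markers summed to 0.0345% to 0.0583% in PBS and 0.0229% to 0.0351% in LPS libraries, and 3 of 11 were lower, against 10 with replicates 1 and 2 alone.

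**Figure D4:**
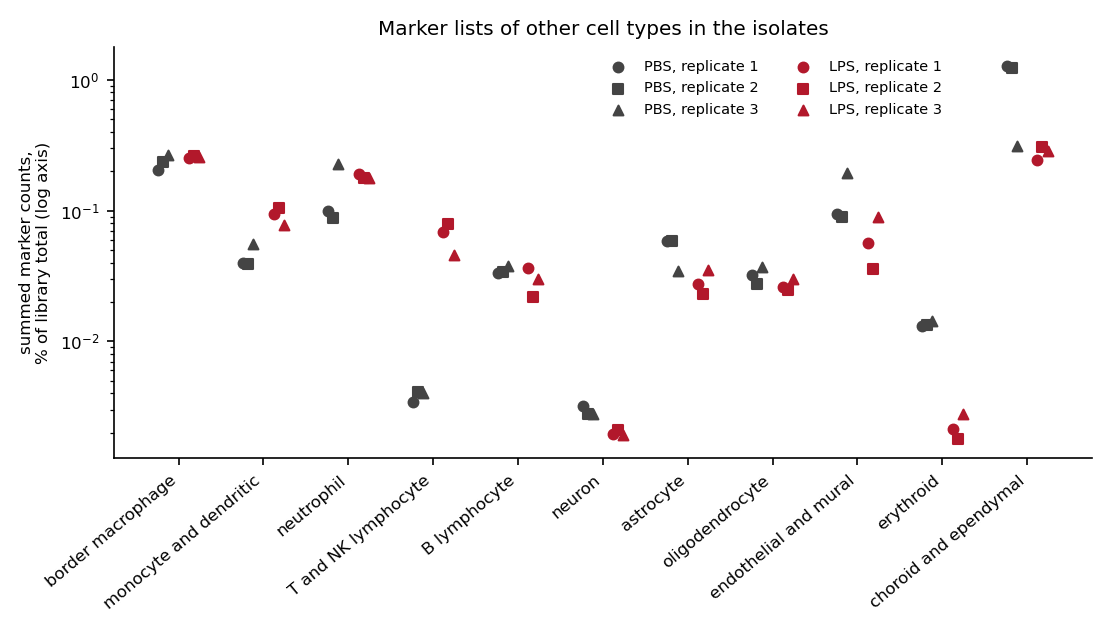
Share of each library's counts taken by 11 lists of markers of other cell types, in percent on a log axis, 1 point per library. The T and NK list stands 0.0455% or more in the LPS libraries against at most 0.00407% in the PBS libraries, and the choroid list is high in PBS replicates 1 and 2.

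The LPS libraries did not respond equally. LPS replicate 3 was the lowest LPS library for 994 of the 1634 higher genes (60.8%), against 36.6% of all tested genes, and the highest for 618 of the 1072 lower genes (57.6%), again against 36.6%. The median log2 difference from the PBS mean over the higher genes was 0.87, 0.91 and 0.73 in LPS replicates 1, 2 and 3, and over the lower genes -0.76, -0.80 and -0.62. Because these genes were called with the same libraries, the values describe the spread and test nothing. Replicate 3 of each group is also the one with Y-linked counts, and with 1 library per group sex and library cannot be told apart.

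The series also holds LPS and PBS libraries of cTag-PAPERCLIP, 3 each, made from whole brain of mice whose microglia carry a tagged poly(A)-binding protein under Cx3cr1-Cre, so that mRNA bound to it can be precipitated with antibodies to GFP without isolating cells. Cx3cr1-Cre also acts in border macrophages and some blood cells, and PAPERCLIP counts come from mRNA 3' ends. Their labels give no dose or time. Totals were 266330 to 337770 counts in the PBS libraries and 679115 to 1041245 in the LPS libraries, so depth differed with treatment. PBS replicate 3 held neuronal transcripts, with Camk2a at 56.6, 76.7 and 186 normalised CPM. That library also held hepatocyte transcripts. Counts of Alb, or albumin, were 1, 0 and 437 in PBS and 7, 13 and 4 in LPS libraries. The test covered 5692 genes there, and 156 rose (2.74%) and 45 fell (0.791%), with 258 and 165 under a replicate block and 62 to 140 and 12 to 31 when a single library was left out. These libraries share no sample with the RNA-seq.

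Genes called in both assays went in the same direction. Of the 143 PAPERCLIP-higher genes that RNA-seq also tested, 137 were higher and none lower there, and of 40 PAPERCLIP-lower genes 28 were lower and none higher. From the other side, PAPERCLIP tested 1040 of the RNA-seq-higher genes and called 137 higher, with a median PAPERCLIP change of 0.39 over the 1040. It tested 557 of the RNA-seq-lower genes and called 28 lower, with a median of -0.38. Most genes called by RNA-seq were thus not called by PAPERCLIP. Every PAPERCLIP library held fewer counts than every RNA-seq library, and the part of depth in the missing calls was not tested. Saa3 gave 7.54, 4.04 and 24.8 normalised PAPERCLIP CPM in PBS and 3049, 4150 and 6196 in LPS libraries (log2 change 8.4, adjusted p = 2.37e-07). C4b rose by 1.40 in PAPERCLIP, H2-K1 by 1.70, Aoah by 3.28 and Marco by 4.91, while P2ry12 fell by 0.92 and H2-Ab1 by 1.39. Without PBS replicate 3 the change of Saa3 was 9.53, and each of these genes kept its PAPERCLIP call except C4b (1.51, adjusted p = 0.0867). Ccl5, with T and NK markers beside it in RNA-seq, went from 7.54, 16.2 and 9.29 to 154, 277 and 252 in PAPERCLIP (log2 change 4.36, adjusted p = 6.74e-05). Mki67 and Hspa1b did not pass the PAPERCLIP filter on low counts.

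The difference between the responses was tested for 10165 genes, and 1 was called (0.00984%), with 57 called under a replicate block. That gene was Apoe. Against the rise of 2.00 in isolated microglia, Apoe gave 343, 331 and 303 normalised PAPERCLIP CPM in PBS and 264, 318 and 383 in LPS libraries, a change of -0.02 (SE 0.20, adjusted p = 0.976), and the difference of RNA-seq minus PAPERCLIP was 1.95 (adjusted p = 0.00103). Without PAPERCLIP PBS replicate 3 the difference for Apoe was 1.87 (adjusted p = 0.00554), again the 1 gene called. The PAPERCLIP groups overlapped for Apoe and the RNA-seq groups did not. Under the replicate block the difference was also called for C4b (adjusted p = 0.0110) and Hbb-bs (adjusted p = 0.0376), which in the fit without PAPERCLIP PBS replicate 3 had adjusted p of 0.313 and 0.108. For Rpl32 the RNA-seq change of 1.67 stood against 0.28 in PAPERCLIP, with an adjusted p of 0.0945 for the difference. For Pabpc1, the protein that PAPERCLIP precipitates, 1.38 stood against 0.51 (difference adjusted p = 0.637).

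**Figure D5:**
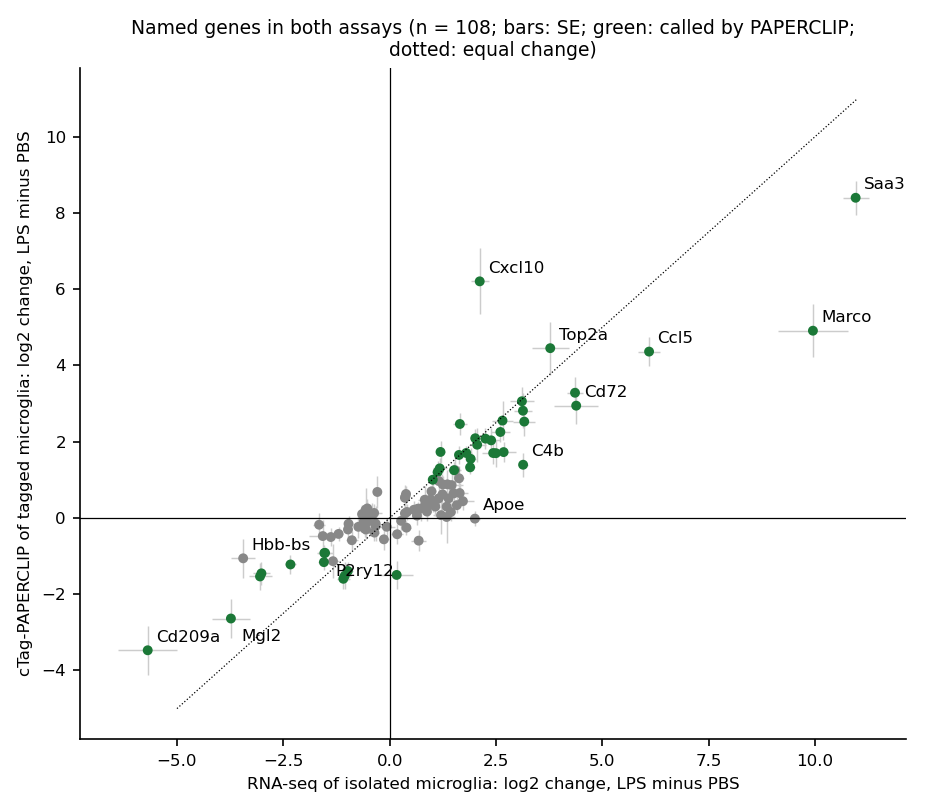
Log2 change after LPS in PAPERCLIP of tagged microglia (vertical axis) against that in RNA-seq of isolated microglia (horizontal axis) for 108 named genes tested in both, with bars of 1 SE and a dotted line of equal change. The 42 genes called by PAPERCLIP are coloured, and Apoe lies at 2.00 in RNA-seq and -0.02 in PAPERCLIP.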

How the data were processed

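The authors deposited whole-number counts per gene for each library, unnormalised. Per the submitters' processing notes, STAR was used for RNA-seq, cutadapt and Novoalign for PAPERCLIP, and the build was mm10, with tool versions and any strand setting not given in the sources used here. Overlapping and near-identical genes therefore have uncertain values. Per the labels, microglial RNA-seq used poly(A)-selected RNA. Of the 47069 RNA-seq identifiers, 46488 matched a symbol, and 23091 genes were shared by symbol with PAPERCLIP. Positions and promoters are from GRCm38.p6, the assembly of mm10.

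Counts were tested with edgeR 4.0.16 (R 4.3.3, limma 3.58.1): filterByExpr with a minimum count of 10, TMM scaling, quasi-likelihood tests on the 6 libraries of each assay, Benjamini-Hochberg adjustment over all genes tested, threshold 0.05. The difference between assays came from 1 fit of 12 libraries with 4 group means. SE came from the F statistic. DESeq2 1.42.0 was an alternative, and the fits were tested on simulated data. Counting intervals cover counting error only.

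Groups came from sample titles. Deviations of same-numbered RNA-seq libraries correlated at 0.111, 0.101 and 0.190 over 7042 genes, and those of PAPERCLIP at 0.130, 0.234 and 0.183 over 5724. The main fits did not pair libraries by number, which was done only in the alternative with a replicate block. Other-numbered pairs gave -0.161 to 0.101 and -0.176 to -0.0291, and in RNA-seq LPS replicate 2 correlated with PBS replicate 1 as with PBS replicate 2, at 0.101 each. No replicate pair differed by as little as sampling noise.

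The libraries were chosen by their labels, and this choice and the 43 gene lists were made with earlier results of these data known. Named genes were a set list (among them Saa3, C4b, Apoe, Gpr165, Araf, Braf, Ptbp1, Ptbp2 and Pabpc1), the 12 largest changes per direction among genes without overlap of the groups whose mean log2 CPM reached 4, up to 3 called members of each list in the main direction and 1 in the other by p, the 5 most abundant called genes in each direction, and the 2 most abundant members of each list of other cells. Predicted genes, pseudogenes and mitochondrial genes were left out. Other list members were named for their role after their values were seen. Results for some genes that the rule covers are not reported here.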

Additional observations from a re-analysis of the deposited data

Results flagged for a closer look

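The LPS response of Apoe differed between isolated and tagged microglia by a test of the difference itself, with a log2 difference (RNA-seq minus PAPERCLIP) of 1.95. The difference kept its call with other size factors, with a replicate block and with no filter on low counts, at 1.98, 1.95 and 1.90, and it was 1.87 without PAPERCLIP PBS replicate 3, a fit added after the data were seen. The 2 sets differ in mice, in tissue preparation and in assay at once, and these cannot be told apart.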

How the results depend on the processing

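The counts of higher and lower genes in isolated microglia were 1634 and 1072, and 1631 and 1139 with a replicate block, so pairing the libraries moved neither by over 1.5 times. The lower count became 1630 with scaling by total counts and 604 by DESeq2, and ranged from 586 to 1172 over fits that left out 1 library; leaving out PBS replicate 2, LPS replicate 1 or LPS replicate 2 each moved it by over 1.5 times. The higher count ranged from 1259 to 1816 over those fits and was 1177 by DESeq2. In tagged microglia the 156 higher and 45 lower genes became 386 and 246 with no filter on low counts and 258 and 165 with a replicate block, and ranged from 62 to 140 and from 12 to 31 when 1 library was left out. The difference between the assays was called for 57 genes with a replicate block and 114 with no filter. Of 155 named genes called, 136 were called under every alternative and none changed sign. The replicate block ended the call of 3 named genes, Cpsf4, Hk1 and Ptbp2. In several lists with 2 called members in a direction, leaving out 1 library lowered that count to 1 or 0. List counts under the alternatives were computed after the data were seen. Fits that left out libraries or changed the filter chose the tested genes anew. The number of list members tested there can thus differ from that of the main fit. With library totals of 1250170 to 2133407 counts, genes of a few counts per library were filtered out, and a missing call there does not show equal levels.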

Other observations

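Among genes that passed the filter, 2 had no count in any PBS library and were chosen here after their values were seen. Serpina3g, a serine protease inhibitor, had 39 counts over the LPS libraries, at least 13.3-fold higher than a floor of 3 counts over the PBS libraries. Adamdec1, a secreted metalloprotease of macrophages, had 35 counts over the LPS libraries, at least 11.9-fold higher on the same floor.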
